A study of Olea europaea with 24 samples.

Results

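The rows sucsynthase1, sucsynthase10 and sucsynthase11 are 3 of the 50663 rows of a count table of olive (Olea europaea) branches, and 3 of the 11 rows that the authors named as sucrose synthases. They were chosen by their measured values: under drying, sucsynthase1 went one way and sucsynthase10 and sucsynthase11 the other. That choice rests on dried against watered trees on 23 May and 6 June, so values of those days are given as a description with no test. All 3 rows passed the filter on low counts, which left 29107 rows. The table names the rows by family and number only. Neither an identifier, a transcript length nor a genome position comes with those names, so levels are compared between libraries for 1 row at a time. Where a list's row with the highest mean level is named, that mean is log2 CPM not adjusted for length and served only to pick the row.

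The groups were dried trees (trees 4, 8 and 12) and watered trees (trees 3, 9 and 11), with a branch of each tree sampled on 7 May, on 23 May, on 6 June and on 29 July. The 24 libraries thus form 8 groups of 3 trees. The labels give 1.2 litres of water daily as the irrigation, and for the dried trees 1 litre a week over 2 weeks and then no water over 2 weeks. The labels do not say on which of the 4 days that period began or ended. Drying is here taken to fall on 23 May and 6 June, an assumption from the names of the authors' comparisons. The labels also give no genotype or age of the trees. Heat, drought and recovery are all named in the title of the series, and the sampling day carries weather and season as well as irrigation.

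Sucrose synthase splits sucrose, the sugar that travels in the phloem, into fructose and UDP-glucose, and the reaction can run in both directions. UDP-glucose is a precursor of cellulose and callose and can be passed on towards starch, so the enzyme is known from tissues that take up and store sugar. Plants carry several sucrose synthase genes with different tissue and stress patterns. Invertases, the other enzymes that split sucrose, give glucose and fructose and run in 1 direction.

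Depth differed between libraries, with total counts of 6675360 to 14122826. The 25 rows with the highest counts of the series held 13.9% to 92.0% of a library, which left 901482 to 8941329 counts for the other rows. Watered tree 9 stood apart on 7 May: over all tested rows its log2 CPM correlated at 0.48 and 0.61 with the other watered trees of that day, which correlated at 0.88 with each other. Watered tree 9 also stood apart on 23 May (0.48 and 0.64, against 0.80 between trees 3 and 11), and watered tree 3 on 6 June (0.71 and 0.73, against 0.87 between trees 9 and 11). The label of branch tissue was not checked against marker genes, because the other rows carry no gene names. In bulk tissue, a change in the share of cells that express a gene and a change in RNA per cell cannot be told apart.

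Reads were shared between some of the sucrose synthase rows. The deposited estimated counts of sucsynthase1 were fractional in all 24 libraries, and in all 24 they added up with those of sucsynthase2 to a whole number within 0.02. Those of sucsynthase11 were fractional in 23 libraries and in all 23 added up with those of sucsynthase9 to a whole number. Sucsynthase10 had whole counts in all 24 libraries. The division of counts between sucsynthase1 and sucsynthase2, and between sucsynthase9 and sucsynthase11, is therefore an estimate, and each pair is also given as a sum.

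**Figure D1:**
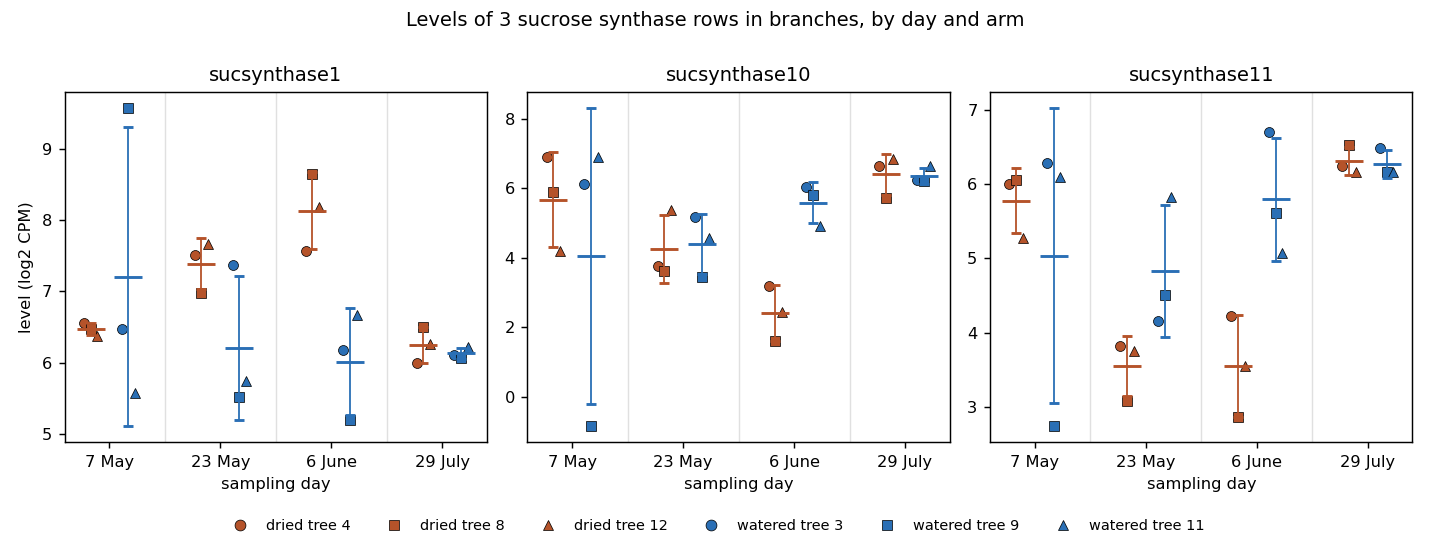
Levels of sucsynthase1, sucsynthase10 and sucsynthase11 (y axis, log2 CPM) on each sampling day (x axis), with 1 point per library, dried trees on the left and watered trees on the right of each day; the horizontal bar is the mean and the whiskers the SD of 3 trees. On 6 June the dried trees lie above the watered trees for sucsynthase1 and below them for the other rows, and on 29 July the arms overlap; the watered tree 9 library of 7 May lies far from its group in all 3 panels.

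Of the 8 group means of log2 levels, that of sucsynthase1 was highest in dried trees on 6 June, although the highest single library was watered tree 9 on 7 May. Levels are on the log2 CPM scale (counts relative to library size, TMM scaling, prior count 2). On 6 June sucsynthase1 was at 7.57, 8.64 and 8.18 log2 CPM in dried trees 4, 8 and 12, against 6.18, 5.20 and 6.67 in watered trees 3, 9 and 11. All dried libraries lay above all watered ones. The log2 fold change (dried minus watered) was 2.06 ± 0.74 (edgeR estimate ± SE, n = 3 trees per arm). Of all 29107 rows, 9.84% had every dried library above every watered one on that day.

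On 23 May sucsynthase1 was at 7.51, 6.98 and 7.66 log2 CPM in dried trees 4, 8 and 12, against 7.37, 5.52 and 5.74 in watered trees 3, 9 and 11. The groups overlapped, because watered tree 3 lay within the range of the dried trees. The log2 fold change was 0.95 ± 0.72 (SE, n = 3 per arm), and 1.78 without the watered tree 3 library of that day.

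The mean level of sucsynthase1 was 6.46 ± 0.09 log2 CPM for dried and 7.21 ± 2.09 for watered trees on 7 May, and 7.38 ± 0.35 in dried and 6.21 ± 1.01 in watered trees on 23 May (SD, n = 3 each). It was 8.13 ± 0.54 in dried and 6.02 ± 0.75 in watered trees on 6 June, and 6.25 ± 0.26 in dried and 6.13 ± 0.08 in watered trees on 29 July (SD, n = 3 each). From low to high, the order was watered trees on 6 June, 29 July and 23 May, dried trees on 29 July and 7 May, watered trees on 7 May, and dried trees on 23 May and 6 June. Of the 7 steps between neighbours in this order, 2 exceeded the pooled SD of the groups they join. These were the 0.21 between dried trees of 29 July and 7 May and the 0.75 between dried trees of 23 May and 6 June. Ranges of neighbours overlapped at every step.

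Of the group means of log2 levels, that of sucsynthase10 was lowest in dried trees on 6 June, although the lowest single library was watered tree 9 on 7 May. On 6 June sucsynthase10 had 15, 16 and 40 counts in dried trees 4, 8 and 12, or 3.20, 1.59 and 2.45 log2 CPM, against 1766, 280 and 129 counts in watered trees 3, 9 and 11, or 6.04, 5.80 and 4.93 log2 CPM. All dried libraries lay below all watered ones. The log2 fold change was -3.19 ± 1.02 (SE, n = 3 per arm). On that day 17.4% of all rows had every dried library below every watered one, and the median log2 fold change over all rows was -0.25.

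On 23 May the arms were mixed for sucsynthase10, at 3.76, 3.62 and 5.39 log2 CPM in dried trees 4, 8 and 12, against 5.17, 3.45 and 4.56 in watered trees 3, 9 and 11 (log2 fold change -0.06 ± 0.92, SE, n = 3 per arm). Between 23 May and 6 June its level changed in opposite directions in the arms, by -0.56, -2.03 and -2.94 on the log2 scale in dried trees 4, 8 and 12, against 0.87, 2.35 and 0.37 in watered trees 3, 9 and 11. A negative change in every dried tree with a positive one in every watered tree was found in 1.84% of all rows, and the difference was not tested for sucsynthase10.

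The mean level of sucsynthase10 was 5.68 ± 1.37 log2 CPM for dried and 4.06 ± 4.27 for watered trees on 7 May, and 4.26 ± 0.99 for dried and 4.39 ± 0.87 for watered trees on 23 May (SD, n = 3 each). It was 2.41 ± 0.81 for dried and 5.59 ± 0.59 for watered trees on 6 June, and 6.40 ± 0.58 for dried and 6.37 ± 0.24 for watered trees on 29 July (SD, n = 3 each). From low to high, the order was dried trees on 6 June, watered trees on 7 May, dried and then watered trees on 23 May, watered trees on 6 June, dried trees on 7 May, and watered and then dried trees on 29 July. The step of 1.20 between watered trees of 23 May and 6 June exceeded the pooled SD of its groups (0.74). The other 6 steps did not, including the step of 1.65 between the lowest group and watered trees on 7 May, whose spread is wide. Ranges of neighbours overlapped at every step.

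Sucsynthase11 was low in dried trees on both 23 May and 6 June. On 23 May it was at 3.82, 3.08 and 3.75 log2 CPM in dried trees 4, 8 and 12, against 4.15, 4.50 and 5.83 in watered trees 3, 9 and 11. The arms did not overlap, although watered tree 3 lay only just above the highest dried tree. The log2 fold change was -1.44 ± 0.64 (SE, n = 3 per arm), and without tree 11 it was -0.74. Of all rows, 8.26% had every dried library below every watered one on that day, with a median log2 fold change of -0.36 over all rows.

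On 6 June sucsynthase11 was at 4.23, 2.86 and 3.55 log2 CPM in dried trees 4, 8 and 12, against 6.70, 5.61 and 5.07 in watered trees 3, 9 and 11. The arms again did not overlap, as in the 17.4% of all rows with every dried library below every watered one. The log2 fold change was -2.34 ± 0.66 (SE, n = 3 per arm), and -1.75 without the watered tree 3 library of that day.

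The mean level of sucsynthase11 was 5.78 ± 0.44 log2 CPM in the dried arm and 5.04 ± 1.99 in the watered arm on 7 May, and 3.55 ± 0.41 in the dried arm and 4.83 ± 0.89 in the watered arm on 23 May (SD, n = 3 each). It was 3.55 ± 0.69 in the dried arm and 5.79 ± 0.83 in the watered arm on 6 June, and 6.32 ± 0.19 in the dried arm and 6.27 ± 0.19 in the watered arm on 29 July (SD, n = 3 each). From low to high, the order was dried trees on 23 May and 6 June, watered trees on 23 May and 7 May, dried trees on 7 May, watered trees on 6 June, and watered and then dried trees on 29 July. One step exceeded the pooled SD of its groups, the 1.28 between dried trees of 6 June and watered trees of 23 May (pooled SD 0.80), and ranges of neighbours overlapped at every step. In dried trees 4, 8 and 12, sucsynthase11 differed by -2.17, -2.99 and -1.52 on the log2 scale between 7 May and 23 May, and sucsynthase10 by -3.16, -2.28 and 1.18. Both rows were thus lower on 23 May than on 7 May in dried trees 4 and 8. In dried tree 12 sucsynthase11 was lower and sucsynthase10 higher. In watered trees 3, 9 and 11 sucsynthase10 differed by -0.95, 4.3 and -2.34, and sucsynthase11 by -2.13, 1.76 and -0.26. Both rows were thus also lower in watered trees 3 and 11, and higher in watered tree 9.

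**Figure D2:**
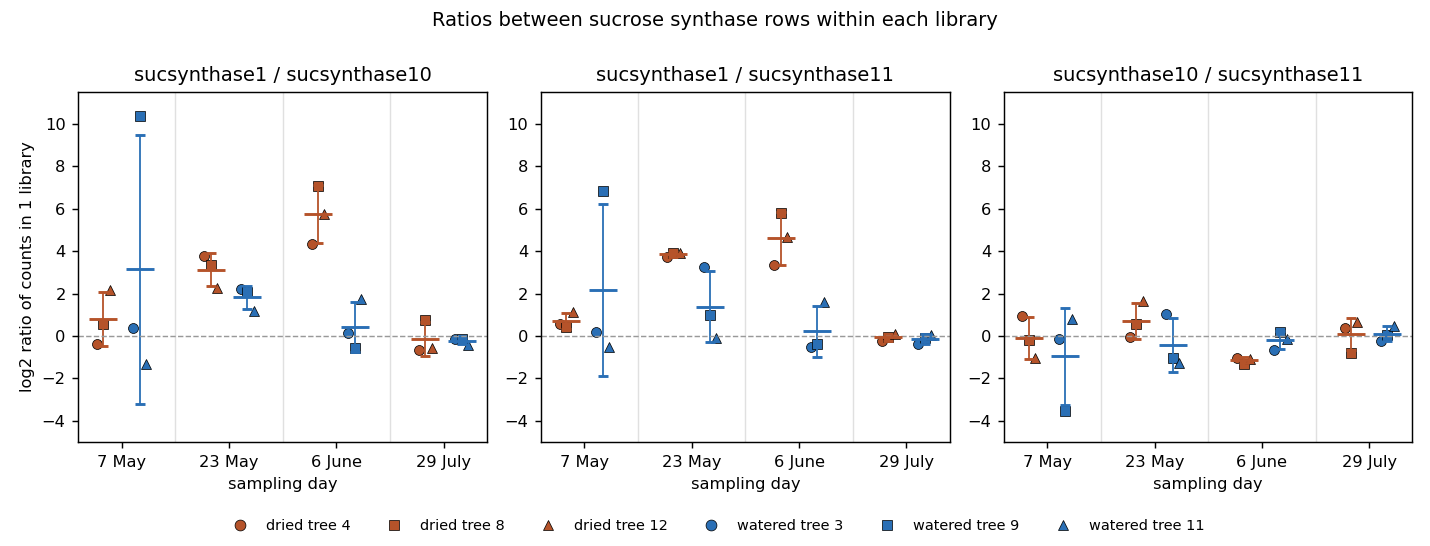
Log2 ratio of the counts of 2 rows within 1 library (y axis) by sampling day (x axis), with 1 point per library, dried trees on the left and watered trees on the right of each day; bars and whiskers are the mean and SD of 3 trees, and the dashed line marks equal counts. The ratio of sucsynthase1 to sucsynthase10 was 4.35 to 7.09 in dried trees on 6 June against -0.59 to 1.74 in watered trees, while both arms lie near 0 on 29 July.

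Ratios of counts within a library do not depend on how libraries are scaled. On 23 May and 6 June they restate the values that the rows were chosen for, and add no support to that choice. On 23 May sucsynthase10 itself was mixed between the arms (log2 fold change -0.06 ± 0.92, SE, n = 3 per arm). The 23 May ratio to sucsynthase10 thus mainly follows sucsynthase1. The log2 ratio of sucsynthase1 to sucsynthase10, with 0.5 added to each count, was 4.35, 7.09 and 5.76 in dried trees 4, 8 and 12 on 6 June, against 0.14, -0.59 and 1.74 in watered trees 3, 9 and 11. On 23 May it was 2.27 to 3.76 in dried trees and 1.18 to 2.20 in watered trees. On both days every dried library lay above every watered one, on 23 May only just (2.27 against 2.20). With sucsynthase1 and sucsynthase2 summed, the ratio to sucsynthase10 overlapped on 23 May, at 2.99 to 4.27 in dried and 1.65 to 3.17 in watered trees. On 6 June the summed ratio did not overlap, at 4.65 to 7.36 in dried and 0.35 to 2.66 in watered trees. The share of all rows with such a separation was not computed for ratios. Row lengths were not given, so the value of a ratio has no meaning of its own and only its differences between libraries are read.

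The log2 ratio of sucsynthase1 to sucsynthase11 was 3.70, 3.91 and 3.91 in dried trees 4, 8 and 12 on 23 May, against 3.23, 1.01 and -0.09 in watered trees 3, 9 and 11. On 6 June it was 3.33, 5.79 and 4.66 in the dried trees, against -0.53, -0.40 and 1.6 in the watered trees. The ratio of watered tree 3 on 23 May was close to those of the dried trees. The ratio of sucsynthase10 to sucsynthase11 was -1.14 ± 0.14 in dried and -0.20 ± 0.43 in watered trees on 6 June (SD, n = 3 each), a much smaller gap between the arms than in the ratios with sucsynthase1.

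Of the counts of all 11 sucrose synthase rows, sucsynthase1 held 42.5%, 62.1% and 34.4% in dried trees 4, 8 and 12 on 6 June, against 13.8%, 7.97% and 12.9% in watered trees 3, 9 and 11. Sucsynthase10 held 2.02%, 0.442% and 0.627% in the dried trees, against 12.5%, 12% and 3.84% in the watered trees. On 29 July the share of sucsynthase1 was 9.84% to 15.9% in dried and 9.37% to 12.7% in watered trees, and that of sucsynthase10 was 9.34% to 17.4% in dried and 11% to 14% in watered trees. The dried and watered shares thus separated on 6 June and overlapped on 29 July.

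The rule that chose the rows did not use the 29 July values, and there the arms were tested. The rows were still chosen with earlier results of these data known, and the fit used all 24 libraries. Sucsynthase1 was at 5.99, 6.50 and 6.26 log2 CPM in dried trees 4, 8 and 12, against 6.11, 6.06 and 6.22 in watered trees 3, 9 and 11. Sucsynthase10 was at 6.64, 5.74 and 6.84 in the dried trees, against 6.25, 6.21 and 6.64 in the watered trees. Sucsynthase11 was at 6.24, 6.53 and 6.17 in the dried trees, against 6.49, 6.16 and 6.16 in the watered trees. For each of the rows the arms overlapped, and in watered trees the SD of each row was smaller on that day than on any earlier day.

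The log2 fold changes of dried over watered trees on 29 July were 0.14 ± 0.71 for sucsynthase1, 0.10 ± 0.91 for sucsynthase10 and 0.05 ± 0.62 for sucsynthase11 (SE, n = 3 per arm, edgeR quasi-likelihood test, adjusted p = 1 each). None of the 3 rows was called at an adjusted p under 0.05, and of all rows 0% were (41 at an unadjusted p under 0.05; DESeq2 called 16). The SE draws on the spread of all 8 groups and is wide, so a missed threshold does not show that the arms were alike.

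On 7 May the test between the arms called none of the 3 rows, and again 0% of all rows (990 at an unadjusted p under 0.05; DESeq2 called 73). The libraries of 7 May, taken here to precede drying, also enter the changes towards 23 May and 6 June, so this test is less independent of the choice of rows than that of 29 July. Sucsynthase1 was at 6.55, 6.47 and 6.38 log2 CPM in dried trees 4, 8 and 12, against 6.47, 9.57 and 5.58 in watered trees 3, 9 and 11. Its log2 fold change was -1.76 ± 0.73 (SE, n = 3 per arm, edgeR adjusted p = 1, unadjusted 0.0254) and 0.37 without the watered tree 9 library.

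That library was the highest of the 24 in sucsynthase1 and the lowest in sucsynthase10 and sucsynthase11. Sucsynthase10 had 1 count in it, against 1496 and 2040 counts in watered trees 3 and 11 and 1919, 511 and 229 in dried trees 4, 8 and 12. Sucsynthase11 had 17 counts in it, against 1673 and 1160 in watered trees 3 and 11 and 1012, 573 and 479 in the dried trees. Its log2 ratio of sucsynthase1 to sucsynthase10 was 10.37, above the 4.35 to 7.09 of the dried trees on 6 June. The 25 most abundant rows held 64.0% of its counts, against 28.3% and 26.5% in watered trees 3 and 11. Their part in the result was not tested.

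On 7 May the log2 fold changes of dried over watered trees were 0.06 ± 0.91 for sucsynthase10 and 0.14 ± 0.62 for sucsynthase11 (SE, n = 3 per arm, edgeR adjusted p = 1 each). Without the watered tree 9 library they were -0.52 and -0.38. A fitted fold change compares mean counts of a group, so a library near 0 moves it less than it moves the mean of log2 levels, which for sucsynthase10 was 5.68 ± 1.37 in dried and 4.06 ± 4.27 in watered trees (SD, n = 3 each). Dried tree 12 was the lowest dried library of that day for both rows, at 4.21 log2 CPM for sucsynthase10 and 5.27 for sucsynthase11.

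From the first day to the last, the 3 rows were not shown to change in either arm. In dried trees the log2 fold changes of 29 July over 7 May were -0.20 ± 0.71 for sucsynthase1, 0.42 ± 0.91 for sucsynthase10 and 0.51 ± 0.62 for sucsynthase11 (SE, n = 3, edgeR adjusted p = 1 each), with 0% of all rows called (906 at an unadjusted p under 0.05; DESeq2 called 48). Sucsynthase11 was higher on 29 July in 3 of 3 dried trees, by 0.25, 0.47 and 0.91 on the log2 scale in trees 4, 8 and 12. It was also higher in 3 of 3 watered trees, by 0.21, 3.42 and 0.07 in trees 3, 9 and 11, and 8.11% of all rows were higher on 29 July in every tree of both arms. Sucsynthase10 differed by -0.28, -0.16 and 2.63 in dried trees 4, 8 and 12, so that its fold change in dried trees rested on tree 12.

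In watered trees the log2 fold changes of 29 July over 7 May were -2.10 ± 0.74 for sucsynthase1 (edgeR adjusted p = 0.301), 0.39 ± 0.91 for sucsynthase10 (adjusted p = 0.975) and 0.60 ± 0.62 for sucsynthase11 (adjusted p = 0.957; SE, n = 3 each), and 0% of all rows were called (2390 at an unadjusted p under 0.05; DESeq2 called 729). Tree by tree, sucsynthase1 differed by -0.37, -3.51 and 0.64 in trees 3, 9 and 11, so the fold change rested on tree 9. Without the watered tree 9 library of 7 May the log2 fold changes were 0.03 for sucsynthase1, -0.19 for sucsynthase10 and 0.09 for sucsynthase11.

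The change between 7 May and 29 July did not pass the test for a difference between the arms. The log2 interaction (dried minus watered) was 1.90 ± 1.01 for sucsynthase1, 0.04 ± 1.28 for sucsynthase10 and -0.10 ± 0.88 for sucsynthase11 (SE, n = 3 per arm, edgeR adjusted p = 1 each). Of all rows 0% were called (332 at an unadjusted p under 0.05; DESeq2 called 14). For sucsynthase1 it was -0.23 without the watered tree 9 library of 7 May.

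The changes between 7 May and 6 June use the 6 June values that chose the rows, and are a description. Sucsynthase1 was higher on 6 June than on 7 May by 1.02, 2.17 and 1.81 on the log2 scale in dried trees 4, 8 and 12, and differed by -0.30, -4.37 and 1.09 in watered trees 3, 9 and 11. Sucsynthase10 differed by -3.72, -4.31 and -1.76 in the dried trees, and by -0.08, 6.65 and -1.98 in the watered trees. Sucsynthase11 differed by -1.76, -3.20 and -1.72 in the dried trees, and by 0.43, 2.87 and -1.03 in the watered trees. Each row thus had 1 direction in all dried trees, as did many others: of all rows, 17.6% were higher and 27.7% lower on 6 June in every dried tree. The watered trees differed in direction for each of the 3 rows.

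Between 6 June and 29 July the signs in the dried trees were the opposite ones. Sucsynthase1 differed by -1.58, -2.13 and -1.92 on the log2 scale in dried trees 4, 8 and 12, and by -0.07, 0.86 and -0.45 in watered trees 3, 9 and 11. Sucsynthase10 was higher by 3.44, 4.15 and 4.39 in the dried trees, and by 0.21, 0.41 and 1.71 in the watered trees. Sucsynthase11 was higher by 2.01, 3.67 and 2.63 in the dried trees, and differed by -0.21, 0.55 and 1.09 in the watered trees. Of all rows, 37% were higher and 22.1% lower on 29 July in every dried tree. The rows were chosen for their values on 6 June, so a return towards the other days is in part set by the choice and was not tested.

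The low level of sucsynthase11 on 23 May was shared by a watered tree. Against 7 May it differed by -2.17, -2.99 and -1.52 on the log2 scale in dried trees 4, 8 and 12, and by -2.13, 1.76 and -0.26 in watered trees 3, 9 and 11. Watered tree 3 thus changed about as much as the dried trees, and its sucsynthase1 level was also higher by 0.90, within the 0.52 to 1.28 of the dried trees. The log2 CPM of that library over all rows correlated at up to 0.91 with a library outside its group, and at up to 0.80 within it. Such a value was not particular to that library. Dried tree 4 and watered tree 3 of 7 May each reached 0.97 with a library outside their group.

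**Figure D3:**
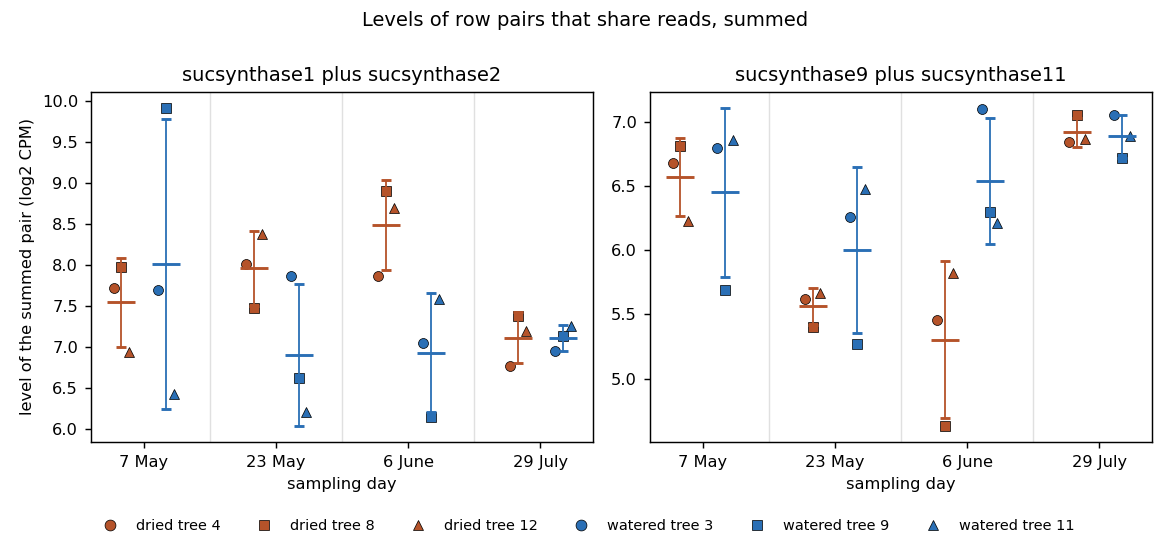
Level of each pair of rows that shares reads, with the counts of the pair summed (y axis, log2 CPM), by sampling day (x axis), with 1 point per library, dried trees on the left and watered trees on the right; bars and whiskers are the mean and SD of 3 trees. On 6 June the sum of sucsynthase1 and sucsynthase2 was 7.87 to 8.91 in dried and 6.15 to 7.59 in watered trees, and that of sucsynthase9 and sucsynthase11 was 4.63 to 5.82 in dried and 6.21 to 7.10 in watered trees.

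Summing rows that share reads kept the directions and made the differences smaller. On 6 June the sum of sucsynthase1 and sucsynthase2 was 8.49 ± 0.55 for dried and 6.93 ± 0.73 for watered trees on the log2 CPM scale, and that of sucsynthase9 and sucsynthase11 was 5.30 ± 0.61 for dried and 6.54 ± 0.49 for watered trees (SD, n = 3 each). The log2 fold changes of the sums were 1.52 and -1.21. In neither pair did the arms overlap on that day, against 9.84% of single rows with all dried libraries above and 17.4% with all dried libraries below the watered ones. On 23 May the sum of sucsynthase9 and sucsynthase11 overlapped between the arms, at 5.40 to 5.67 in dried and 5.27 to 6.48 in watered trees.

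Within each pair the division of counts also differed between the arms on 6 June. The log2 ratio of sucsynthase1 to sucsynthase2 was 2.13, 2.27 and 1.20 in dried trees 4, 8 and 12, against 0.26, 0.10 and 0.16 in watered trees 3, 9 and 11. The log2 ratio of sucsynthase11 to sucsynthase9 was -0.43, -1.30 and -1.97 in the dried trees, against 1.66, 0.70 and -0.27 in the watered trees. Both ratios depend on how reads common to the pair were assigned. Sucsynthase10, with whole counts only, is not touched by that assignment as far as the counts show.

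**Figure D4:**
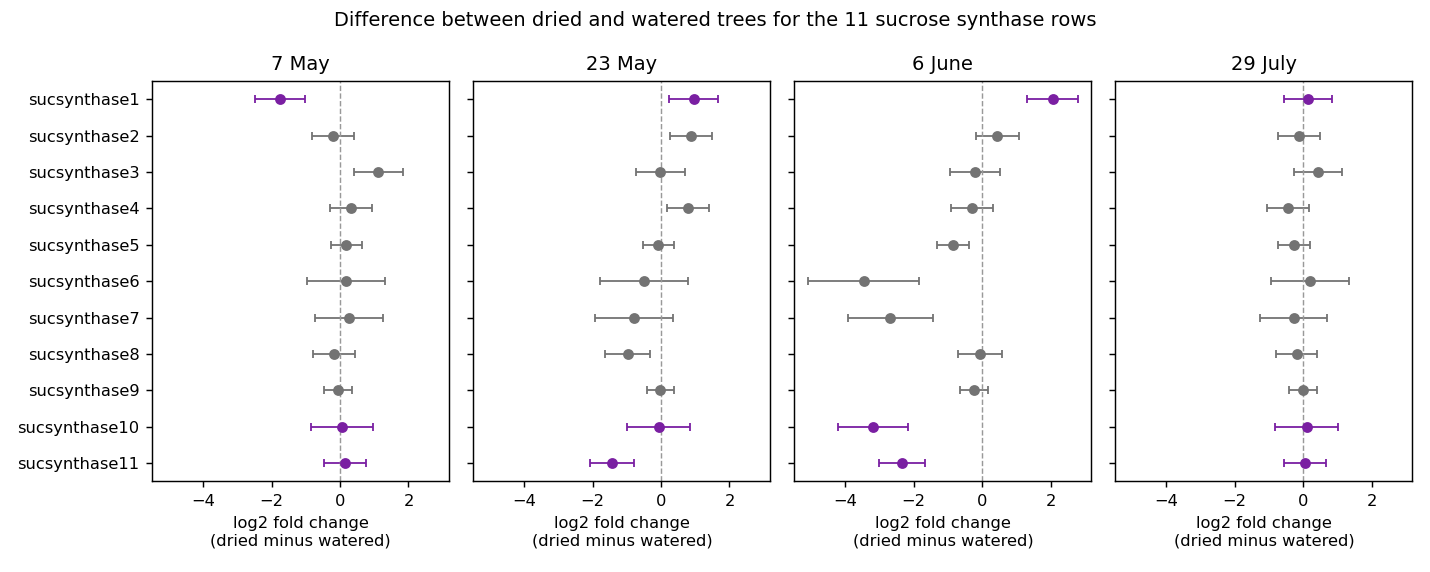
Log2 fold change of dried over watered trees (x axis; point, edgeR estimate; whiskers, SE; n = 3 trees per arm) for the 11 sucrose synthase rows (y axis) on the 4 sampling days, with sucsynthase1, sucsynthase10 and sucsynthase11 in purple and the other rows in grey. On 6 June sucsynthase1 (2.06) lies to the right, and sucsynthase10 (-3.19), sucsynthase11 (-2.34), sucsynthase6 (-3.46) and sucsynthase7 (-2.68) to the left, while on 29 July all points lie within 0.44 of 0 in either direction.

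The other 8 sucrose synthase rows had smaller differences on 6 June, apart from a pair at low counts. Of the 8, 1 had a positive and 7 a negative log2 fold change (median -0.27, against -0.25 over all rows). Sucsynthase2, the partner of sucsynthase1, was the positive one (0.45 ± 0.62), and sucsynthase9, the partner of sucsynthase11, was at -0.23 ± 0.41 (SE, n = 3 per arm). Sucsynthase6 had 3 counts pooled over the dried trees and 172 over the watered trees, and sucsynthase7 had 5 and 109. Their log2 fold changes were -3.46 ± 1.63 and -2.68 ± 1.25 (SE, n = 3 per arm), and these rows share reads with each other.

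On 29 July the log2 fold changes of those 8 rows ran from -0.43 to 0.44, 2 positive and 6 negative with a median of -0.15 (-0.01 over all rows), and edgeR called none. Sucsynthase4, picked by its mean log2 CPM, was at 6.66 ± 0.59 log2 CPM (dried) and 7.04 ± 0.79 (watered) on that day (SD, n = 3 each; log2 fold change -0.43 ± 0.61, SE; edgeR adjusted p = 1). On 6 June sucsynthase4 was at 6.77 ± 0.93 and 7.10 ± 0.88 in dried and watered trees. Its level on 6 June thus differed between the arms by less than the spread between trees.

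Of the lists of other sugar and starch rows, the invertases had the largest median difference between the arms on 6 June. Of 11 invertase rows 5 passed the filter, and all 5 had positive log2 fold changes on that day (median 6.73). A row can pass the filter through 1 group where it is high, so this count and median are a description only. On 7 May all 5 were negative (median -2.69), and on 23 May 3 were positive and 2 negative (median 0.69). Invertase8 was at 2.62 ± 3.42 log2 CPM (dried) and 3.78 ± 4.46 (watered) on 7 May, a wide spread between trees. Its 29 July levels were 0.51 ± 0.74 (dried) and 0.75 ± 0.25 (watered; SD, n = 3 each). No values of the invertases without the watered tree 9 library of 7 May are given. On 6 June invertase8 was at 6.54 ± 1.12 log2 CPM (dried) and -0.33 ± 1.92 (watered). Of 9 hexokinase rows, which phosphorylate the sugars that sucrose splitting releases, 8 passed, with 2 positive and 6 negative values (median -0.54). Hexokinase4 was at 4.87 ± 0.68 in dried and 4.43 ± 0.34 in watered trees (SD, n = 3 each).

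Of 24 starch synthesis rows (ADP-glucose pyrophosphorylases, starch synthases, branching enzymes and isoamylases other than isoamylase3) 22 passed, with 3 positive and 19 negative log2 fold changes on 6 June (median -1.04). Starchsyn4 was at 6.66 ± 1.14 log2 CPM (dried) and 8.21 ± 1.19 (watered). All 5 glucose-phosphate transporter rows passed, 2 positive and 3 negative (median -0.41), with gpt1 at 6.37 ± 0.45 in dried and 5.56 ± 0.60 in watered trees (SD, n = 3 each). In none of the 5 tested comparisons did edgeR call any of these rows. On 29 July the medians were -0.18 for invertases, 0.12 for hexokinases, 0.00 for starch synthesis and -0.14 for transporters. The lists were drawn up with earlier results of these data known, and no row was found for sucrose phosphate synthase by name.

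Across the 24 libraries, sucsynthase10 and sucsynthase11 went together (Pearson r of log2 CPM = 0.85), and sucsynthase1 ran against both (-0.78 with sucsynthase10 and -0.79 with sucsynthase11). Without the watered tree 9 library of 7 May these values were 0.84, -0.65 and -0.75. The libraries share trees, days and depth, so r is a description, given with no p. The 24 libraries include those of the drying days, on which the rows were chosen for opposite directions. The signs of r between the chosen rows are thus in part set by that choice, and no r without those days is given. The share of a library held by the 25 most abundant rows correlated at 0.24 with sucsynthase1, -0.50 with sucsynthase10 and -0.58 with sucsynthase11, and its part in these relations was not tested.

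Among the other 86 named rows, those most like sucsynthase1 over the 24 libraries were bamylase11 (r = 0.85), invertase11 (0.78) and invertase8 (0.77). Those that ran most against it were starchsyn8 (-0.86), bamylase6 (-0.82) and starchp2 (-0.81). With the watered tree 9 library of 7 May left out, r was 0.78 for bamylase11, 0.75 for invertase11 and 0.70 for invertase8. It was then -0.82 for starchsyn8, -0.76 for bamylase6 and -0.75 for starchp2. Bamylase rows are named for beta-amylases, which release maltose from starch, and starchp rows for starch phosphorylases. Among all other rows, Oeu019686.1 (0.95) and Oeu050681.1 (0.94) were most like sucsynthase1, and Oeu053354.1 (-0.94) and Oeu063742.2 (-0.94) ran most against it.

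Sucsynthase10 was most like sbe3 (r = 0.90), starchp3 (0.86) and sbe1 (0.85), where sbe rows are named for starch branching enzymes. It ran most against invertase2 (-0.90), invertase1 (-0.90) and invertase8 (-0.83). Sucsynthase11 was most like agp5 (0.93), starchsyn8 (0.92) and sbe1 (0.91), and ran most against bamylase2 (-0.91), bamylase10 (-0.87) and invertase2 (-0.84). Starchsyn8 and invertase8 thus stood at opposite ends for sucsynthase1 and 1 of the other rows each, which the choice of rows in part sets too. Among all rows, Oeu008538.1 (0.95) and Oeu008532.1 (0.95) were most like sucsynthase10, and Oeu012394.1 (0.97) and Oeu003698.1 (0.97) most like sucsynthase11. Oeu013269.1 (-0.93) and Oeu045071.1 (-0.93) ran most against sucsynthase10, and Oeu002151.1 (-0.96) and Oeu037275.1 (-0.95) most against sucsynthase11.

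The authors' deposited table gives its own comparisons. For the one named after 3 and control 3 it lists log2 fold changes of 1.66 for sucsynthase1, -0.424 for sucsynthase10 and -0.333 for sucsynthase11, each with an adjusted p of 1. Over the 28610 rows in both, these folds correlated at 0.92 with the tree-blocked interaction between 7 May and 29 July. With dried minus watered on 29 July they correlated at 0.48. A positive value in that comparison is thus read as a more positive change in dried than in watered trees, not as a higher level. For control 2 and drought 2 the authors' deposited table lists -3.46 for sucsynthase1, 3.83 for sucsynthase10 and 2.72 for sucsynthase11. For control 1 and drought 1 the authors' deposited table lists -2.57 for sucsynthase1, 0.339 for sucsynthase10 and 1.85 for sucsynthase11. These columns run the other way, with negative values tending to go with higher levels in dried trees. They correlated with the dried minus watered fold changes at -0.92 (6 June, 24969 rows in both) and -0.82 (23 May, only 5919 rows in both). The design behind the authors' deposited table is not stated, and its values may be changes relative to 7 May, so their size is not set against the fold changes given above. The adjusted p-values of both drying columns are left out, since the rows were chosen on those days.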

How the data were processed

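Tools named in the submitters' processing notes are limma, DESeq2, Bowtie2, RSEM and cutadapt. The role and version of each, like the genome build, are not given in the sources used here. Deposited by the authors were expected counts per row for 24 libraries, a table of scaled signal values that equals the rounded counts times 1 constant per library, and a table of log2 fold changes and adjusted p-values. Of the 50663 rows, 50566 carry gene model IDs; 0 of these matched the RefSeq gene table (assembly O_europaea_v1), so no sequence or position is given.

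Expected counts were rounded and tested with edgeR 4.0.16 in R 4.3.3 (TMM, filterByExpr, quasi-likelihood test, 1 mean per group of arm and day, all 24 libraries), with Benjamini-Hochberg adjustment over 29107 rows and calls at an adjusted p under 0.05. The SE was taken as the size of the log2 fold change divided by √F. DESeq2 1.42.0 and limma 3.58.1, on log2 of the authors' scaled values plus 1, were alternatives, with the others given in the closing section. Total counts of 6675360 to 14122826 per library set the precision.

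The rows and lists were chosen with earlier results of these data known. Besides the 3 rows, those named were the 3 named rows and 2 rows of any kind with the highest and with the lowest r over the libraries, and the row of each list with the highest mean level; sucsynthase2, sucsynthase6, sucsynthase7 and sucsynthase9 were added after their values were seen. Tree numbers pair libraries between days, since each tree was sampled on every day. Its deviations from the group means correlated by -0.03 to 0.18 on average per tree. Trees are separate plants, so replicates are biological.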

Additional observations from a re-analysis of the deposited data

Results flagged for a closer look

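Sucsynthase10 was picked out because its level on 6 June relative to 23 May moved 1 way in every dried tree and the opposite way in every watered tree. The log2 changes were -0.56 in tree 4, -2.03 in tree 8 and -2.94 in tree 12 of the dried arm, against 0.87 in tree 3, 2.35 in tree 9 and 0.37 in tree 11 of the watered arm. The difference was not tested, since the row was chosen for its values on 6 June, and 1.84% of all rows had the same pattern.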

How the results depend on the processing

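On 6 June the log2 fold changes kept their direction in all alternatives, at 1.52 to 2.40 for sucsynthase1, -3.64 to -2.86 for sucsynthase10 and -2.75 to -1.21 for sucsynthase11; the -1.21, and -0.53 on 23 May, came from summing sucsynthase11 with sucsynthase9, which changes what is counted. On 23 May, leaving out a tree or a single library gave 0.63 to 1.98 for sucsynthase1 (highest without tree 3) and -1.73 to -0.74 for sucsynthase11, while sucsynthase10 ran from -0.89 to 0.57 over all alternatives. No alternative gave an adjusted p under 0.05 for any of the rows on 7 May, 29 July or between them; the lowest was 0.0563, by DESeq2, for sucsynthase1 in watered trees. DESeq2 called 73 rows on 7 May, 16 on 29 July, 48 and 729 for 29 July over 7 May in dried and watered trees, and 14 for the interaction, where edgeR and the other alternatives called 0.

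With a tree or a library left out, values changed sign as follows, none of them called. On 7 May the range was -2.26 to 0.37 for sucsynthase1, -0.71 to 0.91 for sucsynthase10 and -0.38 to 0.58 for sucsynthase11. On 29 July it was -0.12 to 0.37 for sucsynthase10 and -0.06 to 0.15 for sucsynthase11. For 29 July over 7 May it was -2.63 to 0.06 for sucsynthase1 and -0.19 to 1.09 for sucsynthase10 in watered trees, and -0.24 to 1.11 for sucsynthase10 in dried trees. For the interaction it was -0.26 to 2.44 for sucsynthase1, -0.66 to 0.73 for sucsynthase10 and -0.43 to 0.43 for sucsynthase11. The positive ends for sucsynthase1 on 7 May and in watered trees are those without tree 9. The sucsynthase10 interaction (0.04) was -0.04 by DESeq2, -0.03 with its size factors, -1.59 by limma on the authors' scaled values and -0.43 with the tree as a replicate block. The block changed no call. Limma also moved other values without a change of sign. On 7 May it gave 1.63 for sucsynthase10 (edgeR 0.06) and -0.79 for sucsynthase1 (edgeR -1.76). For 29 July over 7 May in watered trees it gave 2.38 for sucsynthase10 (edgeR 0.39) and -1.07 for sucsynthase1 (edgeR -2.10). On 29 July it gave 0.12 for sucsynthase1, 0.04 for sucsynthase10 and 0.05 for sucsynthase11, close to edgeR. The causes were not tested. Fits without single libraries other than that of 7 May, and the sums, were chosen after seeing the data. Rows at few counts, such as sucsynthase10 in dried trees on 6 June, limit the precision.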
